A study of Homo sapiens with 27 samples.

Results

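Thin bipyramids of calcium oxalate dihydrate (TN) were compared with no crystals (Control) in MCF10DCIS.com cells. This human mammary line descends from MCF10A and is used to model ductal carcinoma in situ, and the labels call it premalignant. The comparison held 11 of the 27 libraries of the series, chosen by their titles: 4 TN libraries (A to D) and 7 Control libraries (A to G). The other 16 libraries, 4 a form, came from cells given thick bipyramids (TK), spheres (SPH) or dumbbells (DB) of the dihydrate, or plates of the monohydrate (COM). For every form the dose was 0.1 mg/mL, added 6 h after 500000 cells had been plated, and polyadenylated RNA was sequenced. The sources used here give no time of harvest, and the labels do not say whether libraries came from separate cultures, so the p-values measure only the spread between these libraries. All groups are 1 cell line, with no genetic change between them.

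Calcium oxalate is the mineral of most kidney stones and of some breast microcalcifications, and its crystals can be taken up by epithelial cells. NF-kB, a transcription factor released by inflammatory signals, switches on chemokine, cytokine and prostaglandin synthesis genes. ATF4 is made when kinases of the integrated stress response slow protein synthesis, and it drives genes of amino acid import, glutathione turnover and redox balance. Cytosolic heat shock proteins are chaperones whose genes respond to HSF1, and FOS, JUN and EGR1 are immediate early genes that follow growth factor signals within minutes.

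The libraries fall into 3 sets by the serial number in their file names (1 to 10, 11 to 22 and 23 to 27). TN A and B and Control A and B are in set 1, TN C and Control C to F in set 2, and TN D and Control G in set 3. Total counts ran from 13707204 to 38672510 in TN libraries and from 13963755 to 32537868 in Control libraries. TN C stood apart from its set. Its mean fragment length was 297.0 nt, against at most 243.2 nt in the other libraries of set 2, and on the first principal component of all 27 libraries it lay at -0.1982, between the other set 2 libraries (9.638 to 37.22) and those of set 1 (-37.88 to -9.417). Results were therefore also computed with TN C placed in set 1. TN B held liver transcripts: its 18 hepatocyte markers summed to 1957 CPM (counts scaled to library size), against 82.53 to 149.0 CPM in the other TN libraries and 83.6 to 176.5 CPM in Control libraries. Every library held the labelled epithelial identity by its markers. All 10 basal mammary markers and all 6 pan-epithelial markers had counts, and the basal list summed to 12040 to 16560 CPM in TN libraries and 14240 to 16870 CPM in Control libraries. Here and below, a lower level in bulk RNA cannot be told apart from fewer cells of a type.

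Cells given thin bipyramids had higher levels of NF-kB target and ATF4 target genes. Levels of 7 of 22 heat shock genes were lower, HSPA1A among them. Immediate early genes split, with FOS, FOSB, JUN and EGR1 lower and KLF4 and FOSL1 higher. Of 16173 genes tested with edgeR's quasi-likelihood test, with group and library set in the model, 1894 (11.7%) passed a Benjamini-Hochberg adjusted p of 0.05. The 1105 genes higher in TN were 6.83% of those tested, and the 789 lower in TN were 4.88%. All 4 TN libraries lay above all 7 Control libraries for 1.57% of genes and below them for 1.36%. Among the 1894 genes, 1708 had the same sign within each of the 3 sets. The calls and these signs come from the same libraries, so that agreement is partly built in and gives no independent support. With no set term 695 genes passed (4.3%), 400 higher (2.47%) and 295 lower (1.82%). With TN C in set 1 the count was 2093 (12.9%; 7.3% higher and 5.65% lower), and without TN B it was 1914 (11.8%; 7.08% higher and 4.75% lower). Without TN A it was 762. Log2 fold changes below are TN over Control from the fit with the set term, with their standard error (SE) and adjusted p, and levels are CPM. Within-set differences come from another fit of all 27 libraries, with a mean for each group and set. Their spread is thus shared across groups and sets, also where a set holds 1 TN library.

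NF-kB targets had the largest share of rises among the lists other than cell type markers. The lists were chosen with earlier results of these data known, so their shares give no independent support. Of 23 members tested, 17 rose and none fell, against the 6.83% of all genes that rose, and the list's median log2 difference was 0.58. PTGS2, the inducible cyclooxygenase of prostaglandin synthesis (chr1:186671791-186680427, minus strand, GRCh38), stood at 65.23, 53.56, 62.17 and 40.46 CPM in TN A to D, against a lowest of 13.14, a median of 20.08 and a highest of 23.56 CPM in Control libraries. Every TN library lay above every Control library. The log2 fold change was 1.58 (SE 0.14, adjusted p = 5.2e-08), and within sets 1, 2 and 3 it was 1.66, 1.61 and 1.62. CCL20, a chemokine for dendritic and T cells, had 20.54, 20.62, 11.5 and 12.43 CPM in TN libraries, against 4.235, 6.0 and 7.307 CPM as the lowest, median and highest Control values. Its log2 fold change was 1.32 (SE 0.15, adjusted p = 3.9e-06), and the groups did not overlap. The neutrophil chemokine CXCL1 reached 432.2, 276.2, 214.9 and 186.1 CPM in TN libraries, against 125.9, 135.3 and 145.4 CPM as the lowest, median and highest in Control. The groups were again apart, with the 2 set 1 libraries highest, and the log2 fold change was 1.02 (SE 0.12, adjusted p = 5.6e-06).

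The other NF-kB members that rose were smaller or rarer. CXCL8, another neutrophil chemokine, rose by 0.92 on the log2 scale (adjusted p = 7.3e-06), and its relatives CXCL2 and CXCL3 by 0.73 and 1.11. The colony-stimulating factors CSF2 and CSF3, which expand and recruit myeloid cells, rose by 1.49 (adjusted p = 0.00013) and 1.67 (adjusted p = 0.023). The interleukin-1 genes IL1A and IL1B rose by 0.67 and 0.56. IL1B differed between sets in Control: it had 211.4, 203.5, 118.0 and 233.9 CPM in TN libraries, against 62.46, 85.46 and 168.8 CPM as the lowest, median and highest in Control, so the groups overlapped. Its adjusted p was 0.0072, but 0.097 with no set term and 0.31 with TN C in set 1. The feedback inhibitor TNFAIP3 rose by 0.65, the caspase inhibitor BIRC3 by 0.58 and the mitochondrial superoxide dismutase SOD2 by 0.61, while NFKBIA, the gene of the NF-kB inhibitor IkB-alpha, had a difference of 0.19 that did not pass. With no set term 13 members rose (2.47% of all genes), with TN C in set 1, 16 (7.3%), and without TN B, 16 (7.08%). Without TN A, 13 rose, where 508 of all genes did. Within set 1, 16 rose and 1 fell, where 7.48% of all genes rose and 6.75% fell. In set 2, where TN C is the 1 TN library, the list's median was 0.59. With the letters A to D as a replicate block 7 of all genes rose, and 2 in those libraries without it, so at most that many members could.

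**Figure D1:**
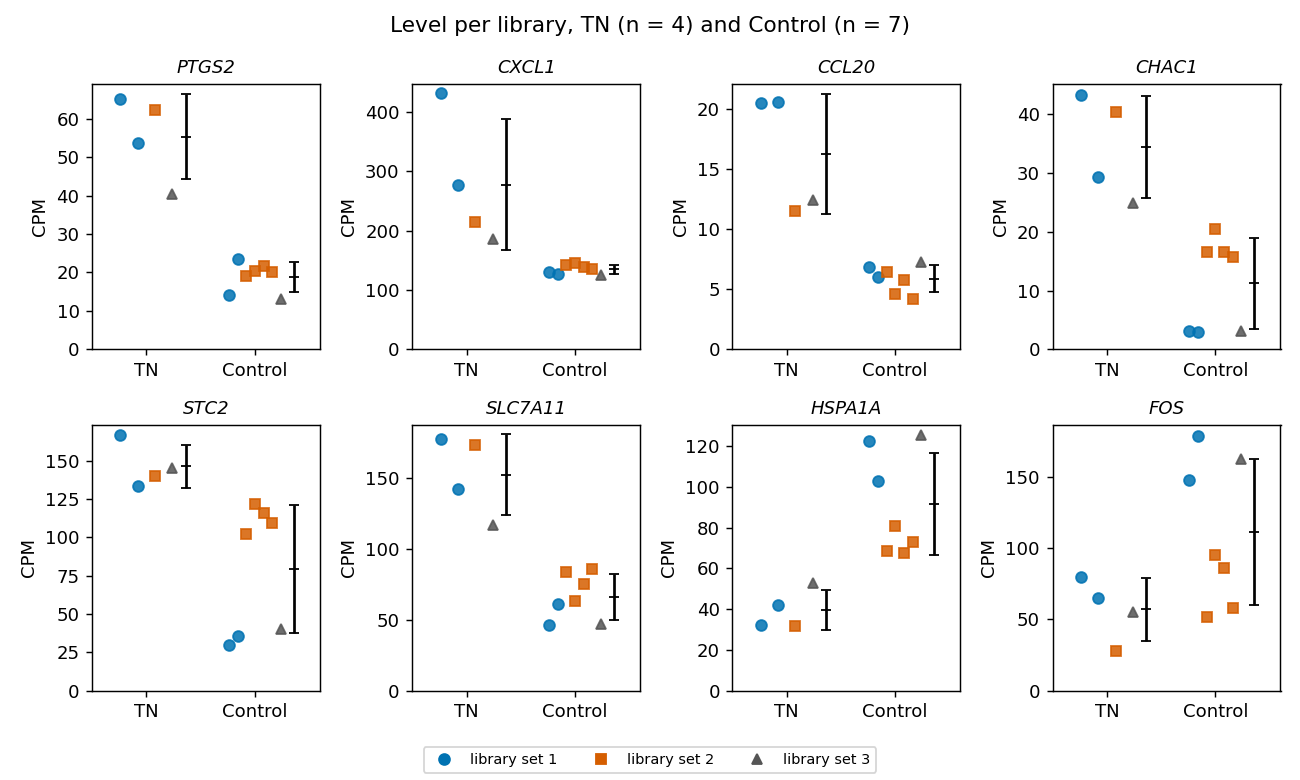
CPM of 8 genes in each TN library (left) and Control library (right), with symbols for the library set and a bar for the mean ± SD (n = 4 and 7). PTGS2, CXCL1, CCL20, CHAC1, STC2 and SLC7A11 were above every Control library in all 4 TN libraries, HSPA1A was below all of them, and FOS overlapped.

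ATF4 and unfolded protein targets were the other large group of rises, with 16 of 24 members higher, 1 lower and a median log2 difference of 0.40. Of all genes 6.83% were higher and 4.88% lower. CHAC1, which breaks down glutathione (chr15:40952962-40956519, plus strand, GRCh38), had 43.16, 29.34, 40.28 and 24.86 CPM in TN libraries, against 2.88, 15.73 and 20.46 CPM as the lowest, median and highest in Control. All TN libraries lay above all Control libraries. The log2 fold change was 2.18 (SE 0.30, adjusted p = 3.7e-05), the largest of the 10 named rises. Control levels of CHAC1 differed by set, and the TN difference was 3.58 in set 1, 1.22 in set 2 and 2.98 in set 3. SLC7A11, the cystine importer, had 176.8, 141.7, 172.9 and 116.5 CPM in TN libraries, against 46.07, 63.33 and 85.68 CPM as the lowest, median and highest in Control. The groups were apart, with a log2 fold change of 1.37 (SE 0.13, adjusted p = 2.1e-07) and set values of 1.58, 1.16 and 1.31. STC2, a secreted glycoprotein, had 166.5, 133.8, 139.8 and 145.1 CPM in TN libraries, against 29.6, 102.0 and 121.8 CPM as the lowest, median and highest in Control. Its log2 fold change was 1.48 (SE 0.20, adjusted p = 2.9e-05), though 0.32 within set 2, and with no set term its adjusted p was 0.11.

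Members of the ATF4 list with other roles moved the same way. SESN2, a stress-induced inhibitor of mTORC1, rose by 1.32 (adjusted p = 3.2e-06), and the pro-apoptotic factor DDIT3, also called CHOP, by 1.19 (adjusted p = 0.00011; 0.27 with no set term). ATF4 itself rose by 0.37, its inhibitor TRIB3 by 0.86 and ATF3 by 0.77. Among amino acid genes, the serine synthesis enzyme PSAT1 rose by 0.83, asparagine synthetase ASNS by 0.37, and the transporter subunits SLC7A5 and SLC3A2 by 0.70 and 0.59. SLC1A4, a neutral amino acid transporter outside the list, rose by 1.19 (adjusted p = 2.3e-05; 0.16 with no set term, and 0.48 on the log2 scale within set 2), with 17.88 to 22.98 CPM in TN libraries and 5.212 to 17.9 CPM in Control libraries. Chaperones of the endoplasmic reticulum went otherwise: HSP90B1 fell by 0.21, and HSPA5, DNAJB9, SDF2L1 and PDIA4 had differences of -0.22, -0.07, -0.27 and -0.16 that did not pass. With no set term, 5 members of the list rose, where 2.47% of all genes did. Within set 2, where TN C is the 1 TN library, the list's median was 0.25.

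Of 22 NRF2 and glutathione genes, 6 rose and 1 fell, against 6.83% and 4.88% of all genes. Beside SLC7A11 the members that rose were the thioredoxin reductase TXNRD1 (0.50, adjusted p = 0.00054, but 0.087 with no set term), SRXN1 (0.28), GCLC (0.18), ME1 (0.25) and FTL (0.39). NQO1 was the member that fell, by 0.24. HMOX1, heme oxygenase 1, had 2.722 to 5.064 CPM in TN libraries and 2.178 to 3.687 CPM in Control libraries, and its difference of 0.31 did not pass (adjusted p = 0.29). With no set term 1 member rose and 1 fell, against 2.47% and 1.82% of all genes.

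A minority of heat shock genes fell. Of 22 heat shock proteins and co-chaperones, 7 fell, against 4.88% of all genes, and none rose. The median of -0.09 lay near 0, and 4 members fell with no set term, where 1.82% of all genes did. Within set 2 the list's median was -0.08. HSPA1A, the inducible HSP70 (chr6:31815464-31817946, plus strand, GRCh38), had 32.48, 41.95, 31.86 and 52.82 CPM in TN libraries, against 67.64, 80.61 and 125.7 CPM as the lowest, median and highest in Control. Every TN library lay below every Control library. The log2 fold change was -1.41 (SE 0.12, adjusted p = 5.2e-08), with -1.60, -1.19 and -1.25 in the 3 sets. HSPA1B fell by 1.08 (adjusted p = 2.1e-08), but it is a near-identical copy of HSPA1A, so how reads were split between them is uncertain. HSPA8, the constitutive HSC70, had 1211, 1185, 1422 and 1192 CPM in TN libraries, against 1524, 1675 and 1918 CPM as the lowest, median and highest in Control, and fell by 0.50 (adjusted p = 0.0021). The co-chaperones DNAJA1 and DNAJB1 fell by 0.39 and 0.28, and HSPH1 and HSP90AA1 by 0.28 and 0.24. The small heat shock gene HSPB1 (0.21), mitochondrial HSPD1 (0.02) and the factor HSF1 (-0.01) did not pass.

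Promoter windows of 300 bases around the RefSeq start (GRCh38.p14) were searched for letters that match textbook motifs. Both strands were searched in 35116 windows. The NF-kB decamer was in 3 of 4 genes searched (CXCL1, CCL20 and CXCL8, not PTGS2) and in 14% of all windows. The ATF4 element TGATGNAA was in 1 of the 4 genes with a window (CHAC1, not STC2, SESN2 or DDIT3), against 3.62% of windows. The heat shock element was searched in HSPA1A, HSPA1B, HSPA8 and HSPH1. Its long form, GAANNTTC followed directly by NNGAA, was in 1 of the 4, HSPA8, against 0.49% of windows. A short form, GAANNTTC alone, was added after the long form had been seen to miss the other genes, and it was in 3 of the 4 (not HSPH1), against 6.77% of windows. Every long match contains a short one, and a motif loosened in this way supports nothing. The CArG box was in neither FOS nor FOSB, against 1.29% of windows. A match describes the letters and says nothing of binding, and whether any match is a known site was not tested. The windows of genes with a match that the values above turn on are CXCL1 (chr4:73869143-73869442, plus strand), CCL20 (chr2:227813592-227813891, plus strand), CHAC1 (chr15:40953221-40953520, plus strand), HSPA8 (chr11:123062087-123062386, minus strand) and HSPA1A (chr6:31815293-31815592, plus strand). Capitals mark the NF-kB decamer (2 overlapping matches in CXCL1), the ATF4 element, the long heat shock element (HSPA8) and the short one (HSPA1A).
CXCL1: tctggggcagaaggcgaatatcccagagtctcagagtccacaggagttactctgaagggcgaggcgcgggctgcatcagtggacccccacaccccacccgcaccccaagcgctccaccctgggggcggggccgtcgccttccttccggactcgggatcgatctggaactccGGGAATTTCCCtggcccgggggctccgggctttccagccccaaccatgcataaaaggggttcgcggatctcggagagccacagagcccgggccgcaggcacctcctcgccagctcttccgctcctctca
CCL20: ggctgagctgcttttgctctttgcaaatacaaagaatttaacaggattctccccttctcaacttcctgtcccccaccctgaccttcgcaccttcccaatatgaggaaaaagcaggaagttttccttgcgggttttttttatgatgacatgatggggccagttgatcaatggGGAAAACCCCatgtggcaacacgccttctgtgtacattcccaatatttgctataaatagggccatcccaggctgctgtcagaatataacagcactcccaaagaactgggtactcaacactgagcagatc
CHAC1: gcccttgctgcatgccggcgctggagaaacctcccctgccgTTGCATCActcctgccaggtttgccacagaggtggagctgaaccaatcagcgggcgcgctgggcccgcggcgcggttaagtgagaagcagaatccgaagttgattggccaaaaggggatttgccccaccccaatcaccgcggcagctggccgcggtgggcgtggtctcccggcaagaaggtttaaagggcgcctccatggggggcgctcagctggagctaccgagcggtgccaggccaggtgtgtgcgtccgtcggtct
HSPA8: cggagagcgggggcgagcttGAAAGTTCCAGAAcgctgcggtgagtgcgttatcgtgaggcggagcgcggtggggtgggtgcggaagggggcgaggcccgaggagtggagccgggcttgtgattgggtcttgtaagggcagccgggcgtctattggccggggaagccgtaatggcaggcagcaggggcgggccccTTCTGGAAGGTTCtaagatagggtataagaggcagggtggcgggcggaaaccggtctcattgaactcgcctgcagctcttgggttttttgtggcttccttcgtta
HSPA1A: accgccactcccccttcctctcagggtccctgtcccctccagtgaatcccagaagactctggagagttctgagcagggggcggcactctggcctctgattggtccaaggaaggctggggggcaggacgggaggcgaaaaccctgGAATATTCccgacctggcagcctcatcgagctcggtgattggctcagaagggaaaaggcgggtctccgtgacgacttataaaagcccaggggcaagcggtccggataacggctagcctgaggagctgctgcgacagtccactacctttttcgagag

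Immediate early genes split. Of 22 members, 3 rose and 5 fell, against 6.83% and 4.88% of all genes. With no set term 2 rose and 2 fell, against 2.47% and 1.82% of all genes. FOS, the founding AP-1 subunit, had 80.09, 65.34, 27.8 and 55.02 CPM in TN libraries, against 51.58, 95.51 and 179.0 CPM as the lowest, median and highest in Control. The groups overlapped across sets, while the differences within sets were -1.17, -1.38 and -1.56, and the log2 fold change was -1.25 (SE 0.18, adjusted p = 8.4e-05; 0.081 with no set term). FOSB, its relative, had 23.63, 21.35, 4.91 and 19.13 CPM in TN libraries, against 9.03, 27.26 and 115.1 CPM as the lowest, median and highest in Control. It fell by 1.89 (SE 0.30, adjusted p = 0.00023; 0.099 with no set term). JUN, EGR1 and the MAP kinase phosphatase DUSP1 fell by 0.76, 0.69 and 1.03, the last with an adjusted p of 0.0023 (0.095 with no set term). KLF4, a zinc-finger factor of epithelial differentiation, rose by 1.14 (adjusted p = 2.3e-05), with 12.21 to 17.53 CPM in all TN libraries and 5.625 to 8.777 CPM in Control libraries, and FOSL1 rose by 0.49.

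**Figure D2:**
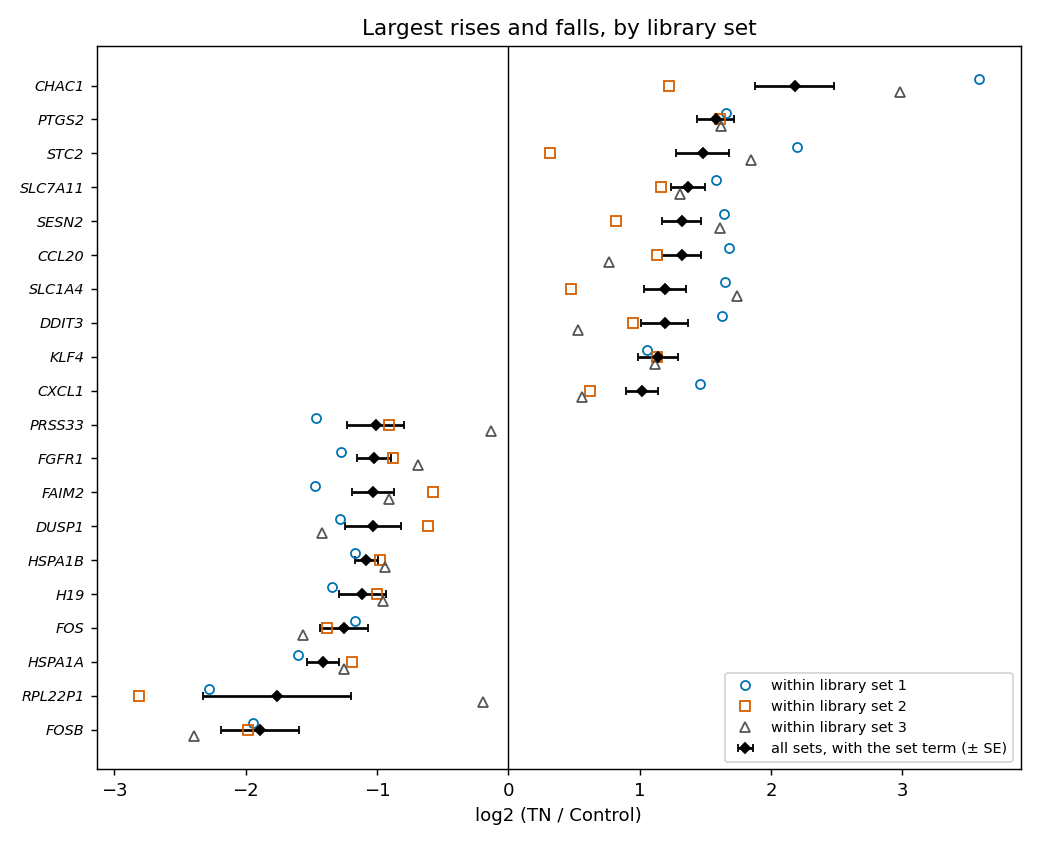
Log2 fold change of TN over Control for the 10 largest rises and 10 largest falls, from all libraries with the set term (diamonds, ± SE) and within each library set (open symbols). All 20 genes kept their sign in every set, which their selection fixed: every TN library had to lie on one side of its set's control mean. CHAC1 and STC2 ranged widest among the rises, from 1.22 to 3.58 and from 0.32 to 2.20.

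The remaining large falls were of unrelated genes. H19, an imprinted long non-coding RNA, had 7.737, 12.22, 13.27 and 15.3 CPM in TN libraries, against 18.72, 28.62 and 31.66 CPM as the lowest, median and highest in Control, and fell by 1.11 (adjusted p = 0.00033) with no overlap. FGFR1, a fibroblast growth factor receptor, had 17.31, 26.13, 50.9 and 36.12 CPM in TN libraries, against 45.64, 89.4 and 96.26 CPM in Control, and fell by 1.02 (adjusted p = 1.1e-05). FAIM2, an inhibitor of Fas-mediated death, fell by 1.03 and the serine protease PRSS33 by 1.01. The pseudogene RPL22P1, whose reads may come from RPL22, fell by 1.76 with an adjusted p of 0.038 that did not hold with no set term (0.28) or with TN C in set 1 (0.18).

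Among matrix proteases and inhibitors, 6 of 21 fell and 1 rose, against 4.88% and 6.83% of all genes. PLAT, tissue plasminogen activator, fell by 0.70 (adjusted p = 0.00045; 0.18 with no set term), and the inhibitors TIMP1 and TIMP2 by 0.62 and 0.24. PLAU, the urokinase gene, rose by 0.48 (adjusted p = 0.00086), with 192.8 to 235.0 CPM in TN libraries and 112.5 to 174.6 CPM in Control libraries. The collagenase MMP1 had 11.41, 21.48, 16.7 and 35.6 CPM in TN libraries, against 14.25, 19.8 and 75.22 CPM as the lowest, median and highest in Control. Its log2 fold change was -1.04 (SE 0.28, adjusted p = 0.016), made of -2.05 in set 1, 0.01 in set 2 and -0.83 in set 3, and it did not pass with no set term (0.34) or without TN B (0.058). MMP10 had the same pattern, at -1.96, 0.10 and -0.90 in the sets. With no set term, none of the list fell, where 1.82% of all genes did.

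Growth and identity genes moved less, and their counts are set against 6.83% of all genes higher and 4.88% lower. In the DNA replication and G1/S list, 7 of 23 rose, among them the cyclins CCNE1 (0.62) and CCNE2 (0.81) and the ribonucleotide reductase subunit RRM2 (0.42), and 13 rose within set 1 (7.48% of all genes there; 14.2% in either direction) against 1 within set 2 (5.05% in either direction). Of 24 cell division genes none rose and 1, KIF20A, fell, and the proliferation marker MKI67 differed by -0.17 (adjusted p = 0.43). Among p53 targets 7 of 23 rose, including MDM2 (0.29), PMAIP1 (0.55) and SESN2, while the cell-cycle inhibitor CDKN1A had a difference of 0.15 that did not pass. Of 12 genes of the EGF receptor family and its ligands, 1 rose and 2 fell, LRIG1 (-0.37) and ERBB2 (-0.21). The member that rose was the ligand HBEGF, by 0.71 (adjusted p = 0.00087). It had 281.3 to 396.6 CPM in TN libraries and 163.0 to 262.7 CPM in Control libraries. CDH1, VIM and KRT5, genes of adhesion, mesenchyme and basal cells, differed by -0.11, -0.08 and 0.02 (adjusted p = 0.31, 0.66 and 0.89).

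In the hypoxia and glycolysis list 7 of 21 fell and 2 rose, against 4.88% and 6.83% of all genes. P4HA1 (-0.46), KDM3A (-0.41), HK2 (-0.35) and EGLN3 (-0.82) were among those that fell, and VEGFA (0.34) and SLC2A1 (0.27) rose. With no set term 5 fell and 1 rose, against 1.82% and 2.47% of all genes. Within set 2, where TN C is the 1 TN library, P4HA1, KDM3A and HK2 differed by -0.15, -0.18 and -0.25. Acute-phase genes SAA2 (1.25), SAA1 (0.81), LCN2 (0.63) and C3 (0.23) rose, 4 of 15 members against 6.83% of all genes, and SAA1 and SAA2 are close copies. With no set term 1 member rose, where 2.47% of all genes did. With TN C in set 1, 2 rose and 1 fell, against 7.3% and 5.65% of all genes. LCN2 passed in neither (adjusted p = 0.23 and 0.40) and SAA1 did not pass with no set term (0.15). Of 12 integrins 1 rose, ITGA5 (0.31), and 2 fell, ITGB5 (-0.39) and ITGB3, against 6.83% and 4.88% of all genes. ITGB3 fell by 0.62, with 51.9 to 102.9 CPM in TN libraries and 107.9 to 148.0 CPM in Control libraries. Of 20 lysosome and membrane damage genes, 3 rose and 2 fell, against 6.83% and 4.88% of all genes. The autophagy receptor SQSTM1 rose by 0.36 and MAP1LC3B by 0.31. Of 22 calcium handling and mineralization genes, 2 rose and 4 fell, against 6.83% and 4.88% of all genes. The kinase subunit CAMK2B fell by 1.0 (adjusted p = 0.00041) and the calcification inhibitor MGP by 0.41. SPP1, osteopontin, passed at 2.99 (adjusted p = 0.011), but it had 18.22 CPM in TN B and 0.2284 to 1.058 CPM in the other TN libraries, against 0.05312 to 0.72 CPM in Control, and without TN B its difference was 0.63 (adjusted p = 0.50).

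**Figure D3:**
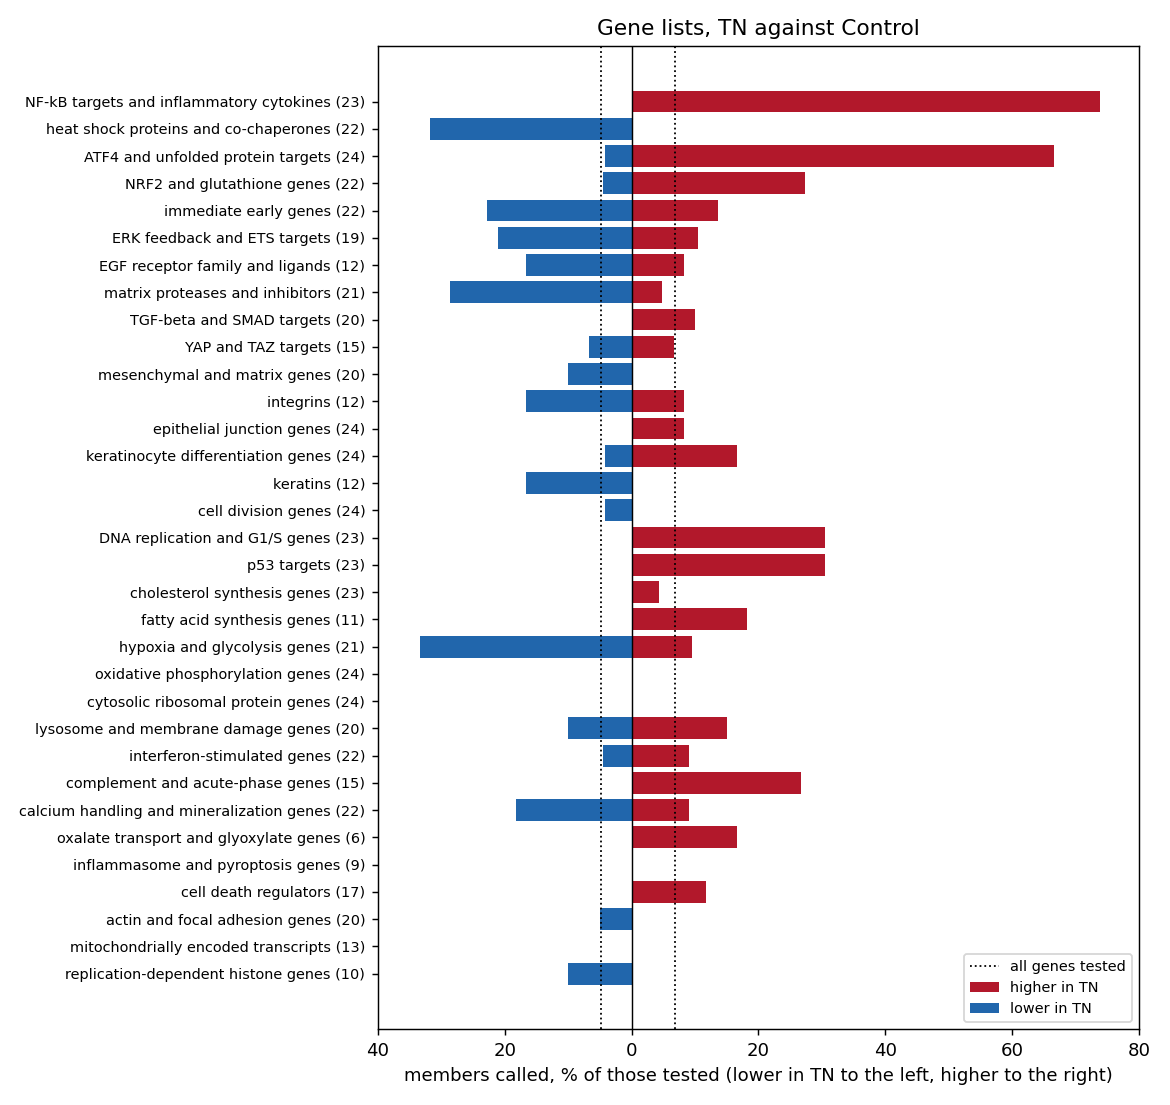
Share of tested members called higher (right) or lower (left) in TN than in Control for each gene list other than the cell type marker lists, with the number tested in brackets and dotted lines at the shares of all genes (6.83% higher, 4.88% lower). NF-kB (17 of 23) and ATF4 targets (16 of 24) had the largest shares of rises among the lists drawn. The lists were chosen with earlier results of these data known.

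Signalling, adhesion and differentiation lists differed in their share of calls, which are set against 6.83% of all genes higher and 4.88% lower. Of 19 ERK feedback and ETS targets, 2 rose and 4 fell. With no set term 1 rose and 1 fell, where 2.47% and 1.82% of all genes did. The transcription factor ETV5 was higher by 0.27 (adjusted p = 0.0082, but 0.29 with no set term) and the receptor EPHA4 lower by 0.43. Of 20 TGF-beta and SMAD targets 2 rose, of 15 YAP and TAZ targets 1 rose (AJUBA, 0.53) and 1 fell, and of 20 mesenchymal and matrix genes 2 fell, the matrix protein SPARC by 0.23 and the basement membrane collagen COL4A2 by 0.31. Of 24 epithelial junction genes 2 rose, the claudin CLDN1 by 0.59 and occludin (OCLN) by 0.30. In the keratinocyte differentiation list 4 of 24 rose and 1 fell, with KRT80 at 0.61 and the cross-linking enzyme TGM1 at 0.66, and of 12 keratins KRT6A and KRT15 fell by 0.45 and 0.36. Of 22 interferon-stimulated genes 2 rose and 1 fell, with the factor IRF1 at 0.42. Of 17 cell death regulators the anti-apoptotic BCL2L1 (0.33) and the initiator caspase CASP8 (0.31) rose.

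Several lists showed no call. None of the 24 oxidative phosphorylation genes, 24 ribosomal protein genes, 9 inflammasome genes or 13 mitochondrially encoded transcripts passed, although 8 oxidative phosphorylation genes and 2 ribosomal protein genes fell within set 2, where 1.55% of all genes did, and 3 mitochondrially encoded transcripts rose there, where 3.5% did. Of 23 cholesterol synthesis genes, LSS rose (0.42), and of 11 fatty acid synthesis genes SREBF1 (0.33) and ME1 rose. These lists differed by set: within set 1, 7 cholesterol genes fell and 1 rose, where 6.75% of all genes fell and 7.48% rose, and within set 2, 12 rose and none fell, where 3.5% rose and 1.55% fell. The test of the difference between sets passed for 939 genes (5.81%), and for 431 without TN B. Set 2 minus set 1 was positive for 495 of the 939 (3.06%) and negative for 444 (2.75%), whichever set had the greater change. It passed with a positive sign for 14 of the 23 cholesterol genes and with a negative sign for 9 of 24 ATF4 targets, with no call of the other sign in either list. HMGCS1, an early enzyme of cholesterol synthesis, had 318.9 CPM in TN C and 204.7 to 222.4 CPM in the other TN libraries. Set 2 holds TN C as its 1 TN library, so the set and that library cannot be told apart.

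Of the 11 hepatocyte markers tested, 10 passed as higher in TN, and none did without TN B. ALB, serum albumin, had 659.1 CPM in TN B and 0.02783, 0.05709 and 0.9563 CPM in TN A, C and D, against 0.12, 1.7 and 8.82 CPM as the lowest, median and highest in Control. The leukocyte marker LYZ also passed (4.19), and no leukocyte marker did without TN B. PTGS2, CHAC1 and HSPA1A were as different without that library, at 1.62, 2.18 and -1.40.

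**Figure D4:**
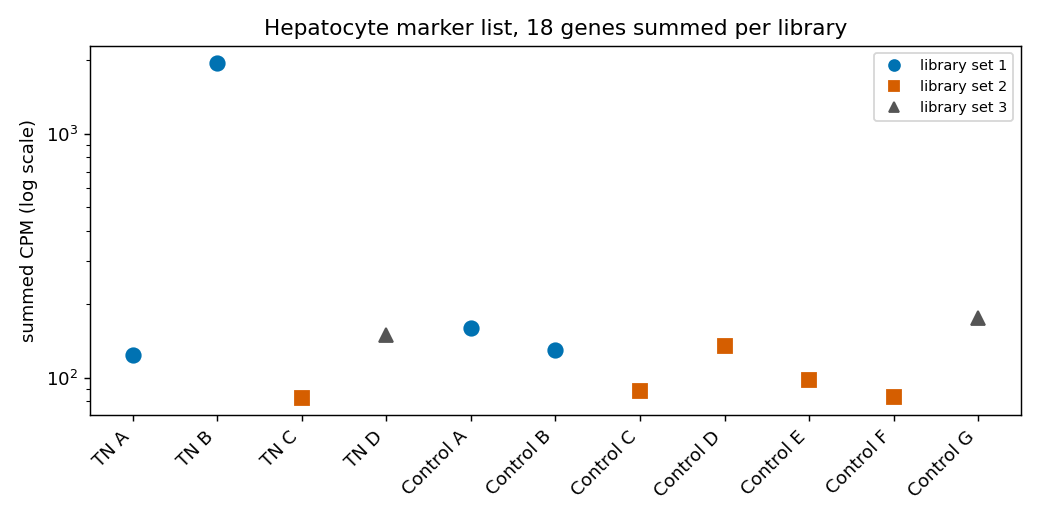
Summed CPM of the 18 hepatocyte markers on a log axis in each TN library (left) and Control library (right). TN B stands at 1957 CPM, and the other 10 libraries lie between 82.53 and 176.5 CPM.

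All crystal forms were given at the same dose, so TN was set against each of them in the same fit. These 4 comparisons share the TN libraries. They passed for 814 genes against COM (5.03%), 1671 against DB (10.3%), 206 against SPH (1.27%; 0.556% lower in TN) and 35 against TK (0.216%; 30 higher in TN, 0.185%, and 5 lower, 0.0309%). Without the set term the counts were 109, 541, 11 and 41, and without TN B they were 455, 1007, 158 and 16. With TN C in set 1 they were 1649, 2801, 555 and 78. Against TK the result leans on the set term, because TN C is the TN library that shares a set with TK, and a small count does not show that thick and thin bipyramids act alike.

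TN had lower levels of some matrix proteases than COM and DB. Against COM, MMP9, a gelatinase, had 0.3896, 0.6265, 1.228 and 0.4414 CPM in TN libraries and 11.34, 17, 2.697 and 10.72 CPM in COM libraries, a log2 difference of -3.54 (SE 0.47, adjusted p = 0.00077). MMP1 had 11.41, 21.48, 16.7 and 35.6 CPM in TN libraries and 106.6, 101.6, 45.03 and 148.0 CPM in DB libraries, a difference of -2.10 (SE 0.31, adjusted p = 0.00024). The groups did not overlap in these 2 comparisons, and both passed with no set term (0.0053 and 0.027). MMP1 against COM (-1.79) overlapped, with 19.69 CPM in COM C and 35.6 CPM in TN D, and did not pass with no set term (0.078). MMP10 overlapped with both forms, at 5.51 CPM in COM C, 12.56 CPM in DB C and 12.58 CPM in TN D. With no set term it did not pass against COM (0.11) or DB (0.053). In the protease list 9 of 21 were lower in TN than in COM (2.41% of all genes) and 10 of 21 than in DB (4.65%). DNA replication genes were higher in TN, 16 of 23 against COM (2.62% of all genes) and 20 of 23 against DB (5.68%), and cell division genes were higher for 17 and 9 of 24. In the NF-kB list 5 of 23 were lower in TN than in COM (2.41% of all genes) and 0 higher, with 2 lower without TN B. IL1B was among them (-0.51, adjusted p = 0.044, but 0.13 without TN B and 0.49 with no set term). Against DB, 3 were higher (5.68%) and 1 lower (4.65%). PTGS2 and HSPA1A differed by -0.14 and 0.03 from COM and by -0.03 and -0.04 from DB, with SEs of 0.13 to 0.15, and did not pass. The largest rises against both forms were liver genes of TN B, which did not pass without it.

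Thin bipyramids went with higher levels of some inflammatory genes than spheres, while IL1B differed by 0.21 and did not pass (adjusted p = 0.54). PTGS2 had 65.23, 53.56, 62.17 and 40.46 CPM in TN libraries and 28.53, 33.39, 33.75 and 19.87 CPM in SPH libraries, a log2 difference of 0.94 (SE 0.15, adjusted p = 0.0035). CCL20 was higher in TN by 1.04 (adjusted p = 0.0029) and CXCL2 by 0.91. In the NF-kB list 7 of 23 were higher in TN than in SPH (0.717% of all genes), and in the ATF4 list 6 of 24, or 3 without TN B. CAMK2B, FGFR1 and FOS had log2 differences of -1.22, -0.97 and -0.95 (adjusted p = 0.0013, 0.00066 and 0.016). With no set term PTGS2 passed (0.036), while CCL20 (0.055), CXCL2 (0.14), CAMK2B (0.051), FGFR1 (0.21) and FOS (0.42) did not. HSPA1A was lower by 0.59 (adjusted p = 0.024; 0.051 without TN B and 0.41 with no set term).

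Against thick bipyramids, LOXL2, a collagen cross-linking enzyme, had 25.19, 24.75, 24.64 and 38.4 CPM in TN libraries and 12.52, 10.01, 11.5 and 11.04 CPM in TK libraries. It was higher in TN by 0.94 (SE 0.12, adjusted p = 0.00068). SYNM, an intermediate filament gene, was lower by 0.96 (adjusted p = 0.00068), with 7.022 to 9.71 CPM in TN libraries and 10.36 to 15.16 CPM in TK libraries. Both passed without TN B and with TN C in set 1. PTGS2 differed by 0.20 (SE 0.17, adjusted p = 0.73). HSPA1A differed by -0.57 (SE 0.15, adjusted p = 0.11), although it passed with TN C in set 1 (-0.81, adjusted p = 0.012). MMP1 had 11.41 to 35.6 CPM in TN libraries and 2.831 to 4.943 CPM in TK libraries, with no overlap. Its difference of 1.35 (SE 0.41, adjusted p = 0.20) did not pass. Within set 2, where TN C is the 1 TN library, the difference was 2.22. Of 24 ATF4 targets, 4 were higher in TN, or 2 without TN B, against 0.185% of all genes.

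**Figure D5:**
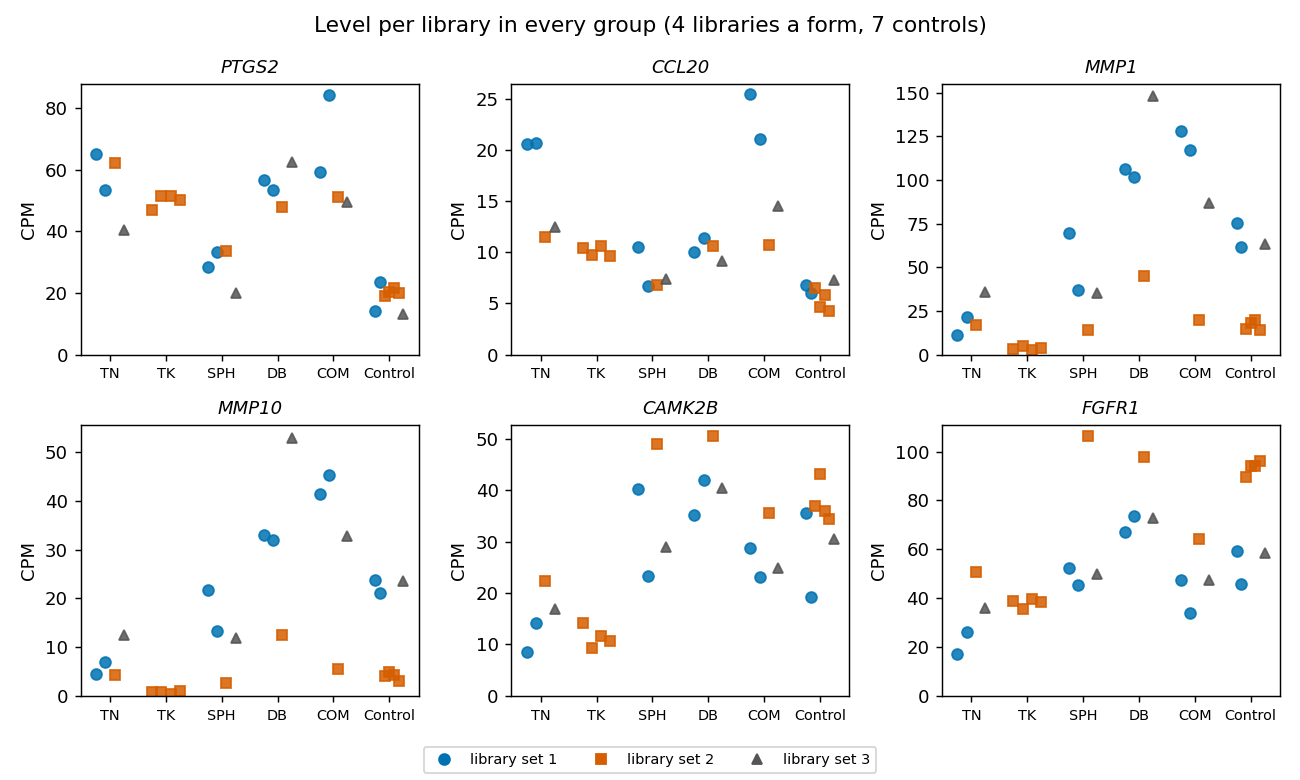
CPM of 6 genes in each library of every group, with symbols for the library set. PTGS2 lay at 40.46 to 65.23 CPM in TN libraries and 19.87 to 33.75 CPM in SPH libraries, and MMP1 at 11.41 to 35.6 CPM in TN libraries and 45.03 to 148.0 CPM in DB libraries.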

How the data were processed

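RNA was read from 27 libraries. The authors deposited RSEM expected counts per gene in gene tables of 60683 genes; Trim Galore, RSEM, Bowtie2 and GRCh38 are named per the submitters' processing notes, without versions. Lengths and TPM or FPKM columns were not used. Expected counts were rounded to whole numbers. Genes were kept by filterByExpr over the 6 groups (16173), scaled by TMM and fitted with edgeR 4.0.16 in R 4.3.3 (quasi-likelihood F-test, group and library set, all 27 libraries), with Benjamini-Hochberg adjustment over all genes tested. DESeq2 1.42.0 was an alternative. CPM use the TMM-adjusted library size, marker sums the plain total. Mean ± SD is over libraries. On simulated counts for 16173 genes, 99% of genes changed by 1 on the log2 scale and 86% of those changed by 0.5 were called, with 7% of calls false. The counts were drawn from the fitted group and set model. Changes were put in 100 genes of each size, all averaging 5 CPM or more, and were the same in every set. These rates do not carry over to rarer genes or to differences that vary by set.

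Genes named are the 10 largest rises and falls that passed, averaged 5 CPM or more over the 11 libraries and had every TN library on one side of its set's control mean, the 3 called members of smallest p of each list with 3 or more called, a followed set, and the 4 largest per direction against each form. Other list members were named after their values were seen. Lists and members were chosen with earlier results of these data known. The short heat shock motif was chosen after the long one's matches were seen. Gene positions are from GENCODE 29 and promoter sequences from RefSeq (GRCh38.p14).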

Additional observations from a re-analysis of the deposited data

Results flagged for a closer look

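Of 138 groups of 4 or 7 libraries tested for a library that stands apart by Dixon's criterion, 16 did, where chance gives about 1 in 20. TN B was the highest TN library for ALB (659.1 CPM), TF (234.3), AHSG (138.4), SPP1 (18.22) and the hepatocyte marker sum (1957 CPM). Control D was the highest Control library for ALB (8.82 CPM), TF (9.616), AHSG (2.314) and RPL22P1 (71.79). TN D was highest among TN libraries for RPL22P1 (29.28 CPM) and PLAT (765.9). TN C was highest for HSPA8 (1422 CPM) and lowest for LCN2 (63.46). Among Control libraries, Control A was highest for FAIM2 (9.169 CPM) and VIM (1170), and Control B for CCNE2 (6.04).

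The TN difference from Control was not the same in sets 2 and 1 for 939 genes by edgeR's quasi-likelihood test of the interaction. The 4 genes of smallest p were HMGCS1 and FASN, where set 2 minus set 1 was 1.30 and 1.41 on the log2 scale, and STC2 and AL034430.1, where it was -1.88 and -11.81. The last is a fitted value that depends on the prior count, since AL034430.1 had 0 counts in TN C against 6.345 to 8.386 CPM in the other TN libraries.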

How the results depend on the processing

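The count of 1894 genes between TN and Control was 695 with no set term, 760 with those 11 libraries alone, 817 within set 2 and 16 within set 3. Leaving out 1 library gave 762 (TN A) to 2222 (TN C). Other scalings, the filter, DESeq2, the contrast within set 1 and TN C in set 1 gave 1862 to 2301. Against COM the count was 109 with no set term, 1649 with TN C in set 1 and 455 without TN B. Against DB these were 541, 2801 and 1007. Against SPH the first 2 were 11 and 555, and 392 without TN B and C. Against TK it was 78 with TN C in set 1, 873 within set 2, 16 without TN B and 15 without TN B and C. The set difference passed for 431 genes without TN B, and with TN C in set 1 it could not be fitted.

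The letters A to D were not taken as pairs, and the correlations do not settle whether they are. Same-letter deviations correlated at 0.0993, -0.0246, 0.17 and 0.11, and different-letter ones at -0.156 to 0.115. With the letter as a replicate block, 19 genes passed in TN A to D and Control A to D, and 2 did in those 8 libraries without it.

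Signs turned for liver and protease genes. Within set 2 the log2 fold change was -2.16 for AHSG, -1.45 for TF, -5.66 for ALB, -0.64 for SPP1, 0.10 for MMP10 and 0.01 for MMP1. Within set 3 it was -0.31 for TF and -1.02 for ALB, and without TN B and C ALB was at -1.22. Leaving out 1 library gave -0.11 to 6.95 for AHSG, -0.44 to 4.77 for TF and -2.75 to 8.22 for ALB, the lowest without TN B and the highest without TN C. Over 24 settings of 68 named genes, 1312 values kept direction and call, 307 lost the call (22 of them with no set term), 1 gained it and 12 turned. The cause was not tested, and the settings differ in the libraries they hold as well as in the model. With 4 TN libraries over 3 sets, small differences are beyond these data.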
